A study of Mus musculus with 10 samples.

Results

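The genes of motile cilia were followed in the uterus of 5 HSD17B1TG and 5 WT female mice aged 4 months. They were chosen by name among the protein-coding genes of the deposited table: all *Dnah*, *Dnai*, *Rsph* and *Cfap* genes with a number after the prefix, together with *Foxj1*, *Rfx2*, *Rfx3*, *Mcidas*, *Ccno*, *Tekt1*, *Tekt2*, *Tekt4*, *Spag6*, *Hydin*, *Drc1*, *Ccdc39* and *Ccdc40*. The table lists 65 of these genes among 29268 genes, of which 17697 are protein-coding, and it has no row for *Mcidas*. HSD17B1TG mice are heterozygous for a human HSD17B1 cDNA that is expressed in all tissues from a chicken beta-actin promoter with a cytomegalovirus enhancer, on the FVB/N background, and HSD17B1 is the enzyme that converts estrone to estradiol. WT mice carried no transgene. By the study's methods the HSD17B1TG females do not cycle, and the cycle phase of each WT mouse is not given in the sources used here, so genotype and the lack of a cycle cannot be told apart. The table of mouse genes has no row for the human cDNA, so the genotype labels were not checked by it. Each library holds uterine RNA of 1 mouse, with all tissues of the uterus together, and the mice of the 2 groups are numbered TG1 to TG5 and WT1 to WT5. For such tissue, fewer cells of a type and less RNA per cell cannot be told apart.

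Motile cilia are built around a ring of microtubule doublets, the axoneme, which beats when dynein motors slide the doublets past each other. Axonemal dynein heavy chains are the motors, intermediate chains hold them on the doublets, radial spokes pass signals from the central pair to the motors, and many CFAP proteins build or brace these parts. FOXJ1 and the RFX factors are the transcription factors that switch on this program, MCIDAS acts before FOXJ1, and CCNO acts after MCIDAS in the multiplication of centrioles into basal bodies. In the female tract the multiciliated cells of the oviduct are the best known source of this program, whereas the mouse uterine epithelium is not known for such cells.

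The RFX factors bind a sequence called the X-box, whose half-site is searched here as GTTGCCA on either strand. RefSeq promoter windows (GRCm38.p6), each reaching from 250 bases before to 50 bases after the start of a gene, matched 54 of the 65 genes by symbol. The half-site stood in the windows of 13 of these 54 genes (24.1%) and in those of 1358 of 27025 genes in all (5.02%). The forkhead core TGTTTNC, the letters that FOXJ1 and its relatives read, stood in 16 of the 54 (29.6%) and in 22.8% of all genes. The 200 bases before the start are shown, in the direction of the gene, for genes whose values are described below, with the half-site, or its reverse complement, in capitals. *Hydin* (chr8:110266777-110266976, plus strand), *Tekt1* (chr11:72361883-72362082, minus strand) and *Cfap300* (chr9:8042876-8043075, minus strand) hold the site 14, 15 and 123 bases before the start. The start used for *Tekt1* is the first of its 2 RefSeq starts and lies 560 bases inside the gene as the deposited table places it, so that window is not upstream of the whole gene.
Hydin: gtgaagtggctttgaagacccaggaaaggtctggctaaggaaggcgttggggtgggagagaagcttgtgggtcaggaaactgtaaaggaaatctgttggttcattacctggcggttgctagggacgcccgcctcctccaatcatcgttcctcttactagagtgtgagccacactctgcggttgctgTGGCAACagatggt
Tekt1: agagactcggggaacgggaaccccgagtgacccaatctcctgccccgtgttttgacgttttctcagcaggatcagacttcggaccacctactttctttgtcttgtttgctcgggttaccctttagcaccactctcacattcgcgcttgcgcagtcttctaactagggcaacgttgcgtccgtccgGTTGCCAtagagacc
Cfap300: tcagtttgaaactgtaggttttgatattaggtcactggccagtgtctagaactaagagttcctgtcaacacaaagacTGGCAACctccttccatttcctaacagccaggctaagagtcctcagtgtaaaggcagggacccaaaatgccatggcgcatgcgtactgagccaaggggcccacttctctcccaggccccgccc
*Dnah1* (chr14:31323897-31324096, minus strand) and *Tekt4* (chr17:25471390-25471589, plus strand) are shown because their values separated the groups. Neither of these stretches holds the exact letters GTTGCCA or their reverse complement. Sequences that differ from these letters, which RFX factors may also read, were not searched.
Dnah1: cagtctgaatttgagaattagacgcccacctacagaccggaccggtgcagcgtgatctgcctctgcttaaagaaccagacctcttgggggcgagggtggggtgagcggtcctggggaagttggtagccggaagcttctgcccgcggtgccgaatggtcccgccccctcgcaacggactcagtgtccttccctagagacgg
Tekt4: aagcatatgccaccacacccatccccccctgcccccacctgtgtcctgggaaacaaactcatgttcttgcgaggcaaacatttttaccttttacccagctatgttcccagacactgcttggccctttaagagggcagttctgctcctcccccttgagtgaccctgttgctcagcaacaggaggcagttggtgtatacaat
In *Cfap74*, the site begins at base 14 of the transcript counted from the first of its 2 starts, which is 37 bases before the second start, and the 30 bases around it are chr4:155409195-155409224 on the plus strand.
Cfap74: agccttccGTTGCCAtggagctgcgcgccc
A match of letters describes these windows and is not a measured binding site.

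The total count on genes lay between 14817228 (WT3) and 23271988 (WT1) per mouse. A count of 3 was taken as the floor: a gene at or under it may be absent. This floor covers counting error only. Levels are given as the deposited FPKM, fragments scaled to gene length and library. Fold changes and p-values are those of edgeR's quasi-likelihood test on the counts, adjusted by Benjamini-Hochberg over the 16993 genes that passed a filter on low counts. A gene was called where the adjusted p was under 0.05, the fold change over 2 and the mean FPKM over 1 in either group.

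The motile cilia genes were low in all 10 uteri. The median of their mean levels was 0.155 FPKM, against 4.06 FPKM for all protein-coding genes, and 23.1% of them had a mean over 1 FPKM, against 70.0%. Of the 65 genes, 26 had a mean under 0.1 FPKM, 24 lay between 0.1 and 1, and 15 were over 1. In 32 genes each mouse had over 3 counts, and 4 genes did not exceed 3 counts in any mouse. The sum over the 65 genes ran from 61.4 to 82.1 FPKM in the HSD17B1TG mice and from 62.6 to 77.1 FPKM in the WT mice, so the groups overlapped.

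**Figure D1:**
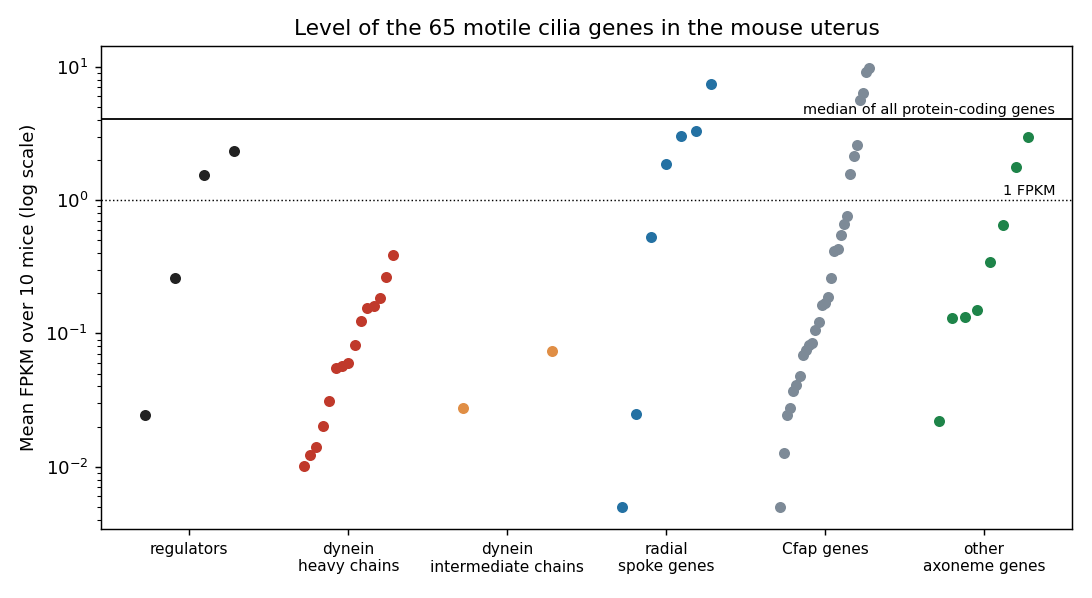
Mean FPKM over the 10 mice of each of the 65 motile cilia genes (log scale), by role, with 1 point per gene. All 15 dynein heavy chains and both intermediate chains lie under 0.5 FPKM, whereas 5 genes lie above 5 FPKM.

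The parts of the axoneme that make it move stood lowest. All 15 dynein heavy chains had means under 0.5 FPKM, from 0.0101 for *Dnah9* to 0.385 for *Dnah1*, and 9 of them were under 0.1. The intermediate chains *Dnaic1* and *Dnaic2*, both subunits of the outer arm, had means of 0.0734 and 0.0274 FPKM. Among the 7 radial spoke genes, *Rsph4a* (0.0247 FPKM), a head protein of the spoke, and *Rsph14* (0.00498 FPKM) were near 0, while *Rsph3a* (7.46), *Rsph9* (3.29), *Rsph1* (3.002) and *Rsph3b* (1.87) were over 1. The Cfap genes spread most widely, from 0.00494 FPKM for *Cfap61* to 9.82 FPKM for *Cfap36*. *Cfap36*, *Cfap20* (9.22 FPKM), *Cfap298* (6.42) and *Cfap97* (5.66) were the only 4 of the 29 Cfap genes over 5 FPKM. *Cfap20*, a protein of the inner junction of the doublet, is also part of non-motile cilia.

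In the HSD17B1TG mice, most of the defining genes of multiciliated cells were at or near the floor, while in the WT mice they were mixed. The markers of motile ciliated epithelium used were *Foxj1*, *Mcidas*, *Ccno*, *Tekt1*, *Tppp3*, *Fam183b*, *Dynlrb2* and *Sntn*. *Foxj1* was at most 3 counts in each HSD17B1TG mouse and 7 to 66 counts in the WT mice. *Ccno* did not exceed 6 counts in any mouse. *Drc1*, which tethers the nexin-dynein regulatory complex to the doublet, did not exceed 4, and *Dynlrb2*, a light chain that is abundant in ciliated cells, did not exceed 3. *Fam183b*, a marker of ciliated cells, was at 0 in all 5 HSD17B1TG mice and in WT4 and WT5, and its levels were 0.0717, 0.371 and 1.86 FPKM in WT1, WT2 and WT3. *Tekt1*, a tektin inside the doublet, had 0.487 FPKM in WT2 and 0.841 FPKM in WT3, and at most 0.0765 FPKM in the other 8 mice. Thus only WT2 and WT3 held more than 3 counts of *Tekt1*. Of the 8 markers, *Mcidas* and *Sntn* have no row in the table, and only *Tppp3* was high throughout, from 20.7 to 106 FPKM. *Tppp3* is also known from uterine stroma. Outside these 8, *Capsl* and *Spef1*, which are described with the other genes of motile cilia, had means of 9.78 and 12.2 FPKM. The markers were thus mixed: *Ccno* and *Dynlrb2* were near the floor in all 10 mice, and *Tekt1* in 8 of them. In contrast, *Foxj1* was over 3 counts in each WT mouse, *Fam183b* reached 1.86 FPKM in WT3, and *Tppp3* was high throughout. The genes are therefore called motile cilia genes here, by their names alone. Whether any library held ciliated or oviduct cells was not tested.

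Genes of the oviduct epithelium did not separate the groups. *Ovgp1*, the oviductal glycoprotein, was 0.422, 0.517, 2.13, 1.13 and 0.469 FPKM in TG1 to TG5 and 1.05, 1.08, 4.51, 0.394 and 0.740 FPKM in WT1 to WT5. WT3 stood above all other mice for *Ovgp1*, as it did for *Tekt1* and *Fam183b*. The log2 fold change of *Ovgp1* in HSD17B1TG over WT was -0.74 (standard error 0.69, edgeR adjusted p = 0.534). *Pax2*, a factor of the Müllerian duct that the uterine epithelium also expresses, was 3.93, 15.7, 17.9, 9.31 and 16.6 FPKM in TG1 to TG5 and 3.57 to 8.89 FPKM in WT (log2 fold change 0.95, standard error 0.39, edgeR adjusted p = 0.150). *Pax8*, its relative with a similar expression, was 3.56 to 13.5 FPKM in HSD17B1TG and 3.52 to 8.66 FPKM in WT (log2 fold change 0.62, standard error 0.36, edgeR adjusted p = 0.304). For *Pax2* and *Pax8*, TG2, TG3 and TG5 stood above all WT mice and TG1 stood low. The sum over the 12 markers of uterine epithelium was likewise lowest in TG1 among the HSD17B1TG mice, with 762 FPKM in TG1, 2158 to 3574 FPKM in TG2 to TG5 and 533 to 1828 FPKM in WT. All 12 of these markers, *Krt19*, *Krt8* and *Epcam* among them, had positive log2 fold changes (median 1.24) and none passed an adjusted p of 0.05. The share of epithelium in the levels of the motile cilia genes was not tested.

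**Figure D2:**
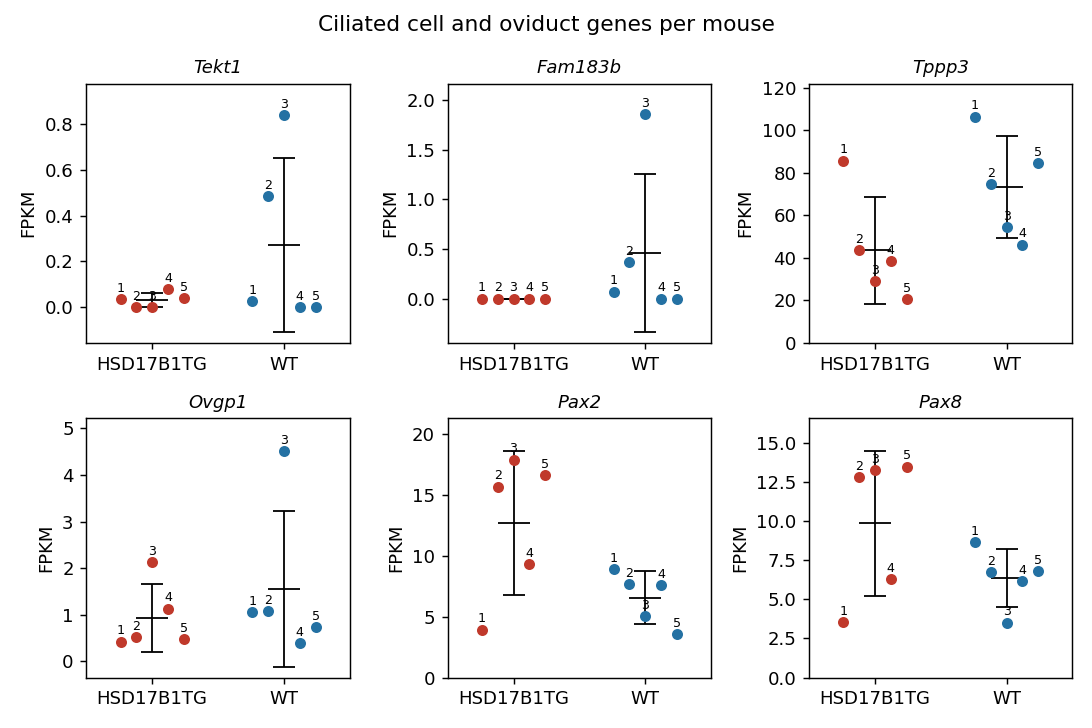
FPKM of genes of ciliated cells (*Tekt1*, *Fam183b*, *Tppp3*) and of the oviduct (*Ovgp1*, *Pax2*, *Pax8*) in each mouse, on linear axes. Points are mice, with their number, and bars are mean and SD (n = 5 per group). WT3 is the highest mouse for *Tekt1*, *Fam183b* and *Ovgp1*, and TG1 is the lowest HSD17B1TG mouse for *Pax2* and *Pax8*.

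The comparison of HSD17B1TG with WT asks which changes the uterus shows before adenomyosis appears. Of the 65 motile cilia genes, 35 had enough counts to be tested. Fold changes were balanced, with 18 of the 35 higher and 17 lower in HSD17B1TG and 0.0029 as the median of the log2 fold changes, against 0.0021 over all 16993 genes. None of the 35 was called higher and none lower, where 2.16% of all genes tested were called higher and 2.08% lower. A call needs a mean over 1 FPKM in either group. Only 15 of the 65 genes had a mean over 1 FPKM over all mice, against 70.0% of protein-coding genes. Genes under this threshold in both groups could not be called whatever their change, in edgeR or in DESeq2. The lack of calls therefore does not set the 35 genes apart from all genes. An unadjusted p under 0.05 was reached by 9 of the 35 (25.7%), 5 higher and 4 lower, against 26.1% of all genes. By DESeq2's Wald test 0 were called higher and 1, *Cfap300*, lower, where 4.48% and 3.28% of all genes with an adjusted p in DESeq2 were called. An adjusted p under 0.05 alone was reached by 0 genes upward (3.34% of all genes) and by 2 downward (2.81% of all genes), *Cfap74* and *Dnah1*. Both have means under 1 FPKM in each group, so that the threshold on FPKM kept them from being called. DESeq2 gave an adjusted p to 52 of the 65 genes, and it was under 0.05 in 4 upward (7.84% of all genes with an adjusted p) and in 5 downward (6.03%). The 4 were *Tekt4*, *Dnah12*, *Dnah5* and *Cfap69*, and the 5 were *Foxj1*, *Cfap74*, *Dnah1*, *Dnah14* and *Cfap300*.

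**Figure D3:**
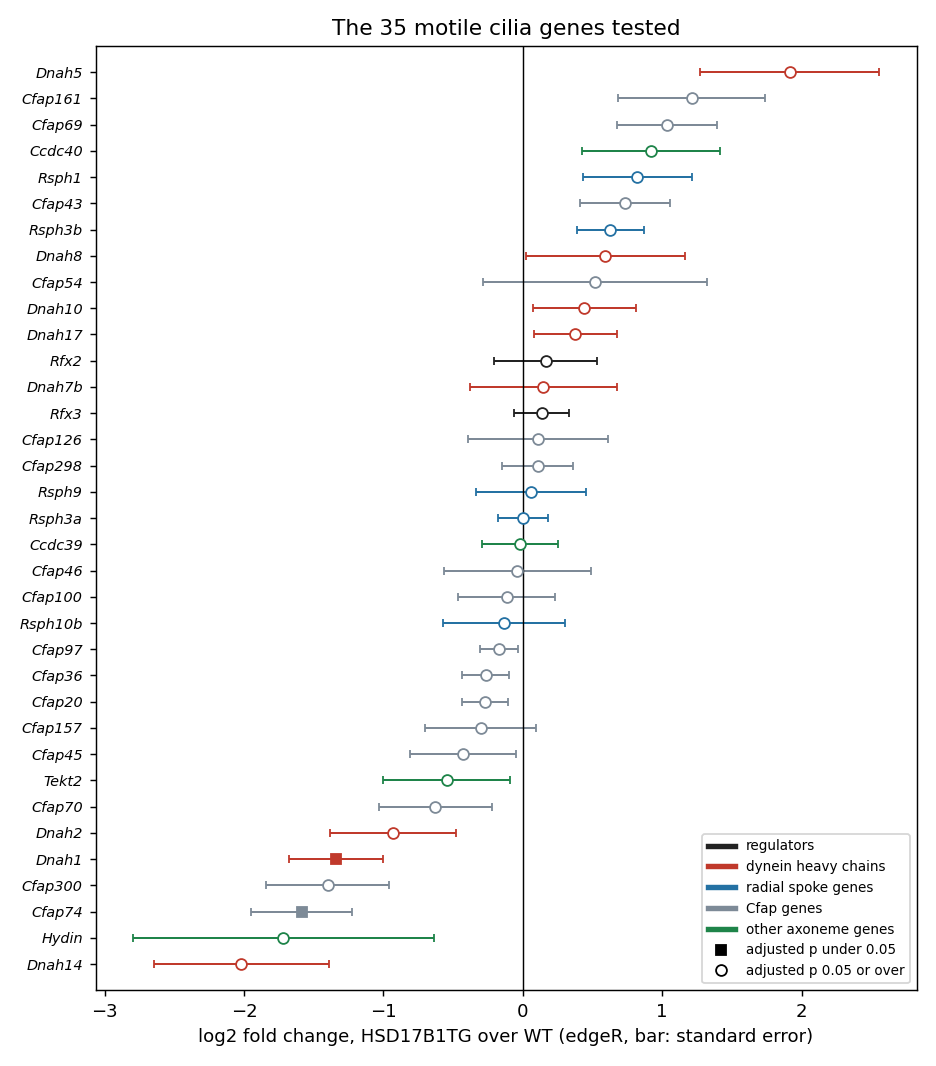
The log2 fold change in HSD17B1TG over WT of the 35 motile cilia genes tested, with its standard error, from edgeR. Colors give the role, and filled squares mark an adjusted p under 0.05, which *Cfap74* and *Dnah1* reached. The changes run from -2.02 for *Dnah14* to 1.91 for *Dnah5* and lie on both sides of 0 among the dynein heavy chains, the radial spoke genes, the Cfap genes and the other axoneme genes.

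*Foxj1*, the master regulator of motile ciliogenesis, was lower in HSD17B1TG without overlap. It lies on chromosome 11 from 116330704 to 116335399 (ENSMUSG00000034227). Its levels were 0.0409, 0, 0.0203, 0 and 0.0735 FPKM in TG1 to TG5 and 1.02, 0.582, 0.567, 0.129 and 0.168 FPKM in WT1 to WT5. No HSD17B1TG mouse had more than 3 counts of *Foxj1*, and the WT mice had 66, 29, 24, 7 and 9. WT1 was the highest and WT4 and WT5 stood closest to the HSD17B1TG mice. Over the pooled libraries, 135 counts in WT stood against 6 in HSD17B1TG, a ratio per total count of 21.8 (exact 95% interval 9.75 to 60.4 for counting error only). A two-sided exact permutation test of the FPKM gave p = 0.00794, the smallest that 5 mice against 5 allow. Any gene without overlap has this p, so it only restates the lack of overlap, and it is not adjusted for the number of genes. The gene did not pass the filter, and without the filter edgeR put its log2 fold change at -4.15 (standard error 0.89, adjusted p = 0.0327). When single mice were left out, a choice made after seeing the data, the adjusted p of *Foxj1* ran from 0.0113 to 0.0791 and was under 0.05 in 3 of 10 fits, while its log2 fold change stayed between -4.80 and -3.66. The WT mean of 0.494 ± 0.365 FPKM (SD, n = 5) is itself low.

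*Rfx2* and *Rfx3* did not follow *Foxj1*, while *Ccno* did not pass the filter and *Mcidas* has no row. *Rfx2* was 2.47 ± 1.19 FPKM (SD, n = 5) in HSD17B1TG and 2.20 ± 0.652 FPKM in WT (log2 fold change 0.16, standard error 0.37, edgeR adjusted p = 0.819). *Rfx3*, which also acts in non-motile cilia, was 1.62 ± 0.153 FPKM (SD, n = 5) in HSD17B1TG and 1.47 ± 0.384 FPKM in WT (log2 fold change 0.13, standard error 0.20, edgeR adjusted p = 0.711). Both RFX genes overlapped between the groups, and they stood well above *Foxj1* in FPKM in each HSD17B1TG mouse.

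*Cfap74* and *Dnah1* were lower in HSD17B1TG. *Cfap74* (ENSMUSG00000078490, chromosome 4 from 155409190 to 155466823) encodes a protein of the central pair apparatus. It was 0.372, 0.133, 0.171, 0.199 and 0.161 FPKM in TG1 to TG5 and 0.654, 0.994, 0.573, 0.389 and 0.491 FPKM in WT1 to WT5. TG1 came close to WT4, and no HSD17B1TG mouse reached a WT mouse. The log2 fold change of *Cfap74* was -1.58 (standard error 0.36, edgeR adjusted p = 0.0357, lower in 5 of 5 mice than any WT mouse). *Dnah1* (ENSMUSG00000019027, chromosome 14 from 31260375 to 31323896) encodes a heavy chain of the inner dynein arms. It was 0.313, 0.167, 0.130, 0.219 and 0.261 FPKM in TG1 to TG5 and 0.368, 0.686, 0.841, 0.401 and 0.460 FPKM in WT1 to WT5. Again TG1 and the lowest WT mouse, here WT1, lay close together without overlap. The log2 fold change of *Dnah1* was -1.34 (standard error 0.34, edgeR adjusted p = 0.0445). The size of both changes held when 1 mouse was left out, from -1.90 to -1.37 for *Cfap74* and from -1.51 to -1.16 for *Dnah1* on the log2 scale, but their adjusted p-values lay close to the threshold: *Cfap74* kept an adjusted p under 0.05 in the fits without TG1, TG3 or WT4 only, and *Dnah1* in those without TG1 or WT4 only. Each gene overlaps a non-coding gene on the other strand, and the strand setting of the counting is not given in the sources used here, so a part of these counts may come from that gene.

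*Tekt4* and *Dnah12* were higher in HSD17B1TG without overlap, at low counts. *Tekt4* (ENSMUSG00000024175, chromosome 17 from 25471590 to 25476594) is a tektin best known from sperm flagella. It was 0.490, 0.413, 0.624, 0.283 and 1.43 FPKM in TG1 to TG5 and 0.0796, 0, 0.0405, 0.0632 and 0 FPKM in WT1 to WT5. TG5 was the highest, and no WT mouse had more than 3 counts of *Tekt4*. The pooled counts were 84 in HSD17B1TG and 6 in WT, a ratio per total count of 14.5 (exact 95% interval 6.38 to 40.5 for counting error only). Without the filter, edgeR put the log2 fold change of *Tekt4* at 3.89 (standard error 0.82, adjusted p = 0.0308), with an adjusted p from 0.0220 to 0.0820 when each mouse was left out, under 0.05 in 4 of 10 fits, and a log2 fold change between 3.40 and 4.39. *Dnah12*, an inner arm heavy chain, was 0.0670, 0.0622, 0.106, 0.0413 and 0.182 FPKM in TG1 to TG5 and 0.0271, 0, 0.0155, 0.0161 and 0.0285 FPKM in WT1 to WT5. Its pooled counts were 94 and 22, and without the filter its log2 fold change was 2.29 (standard error 0.71, edgeR adjusted p = 0.0991, DESeq2 adjusted p = 0.00504). Over the 65 genes, 2 did not overlap upward and 3 downward, where 3.66% of all protein-coding genes did so upward and 2.48% downward. Without the filter, an adjusted p under 0.05 was reached by 1 of the 65 genes upward and by 3 downward, against 1.31% and 1.58% of all 29268 genes.

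**Figure D4:**
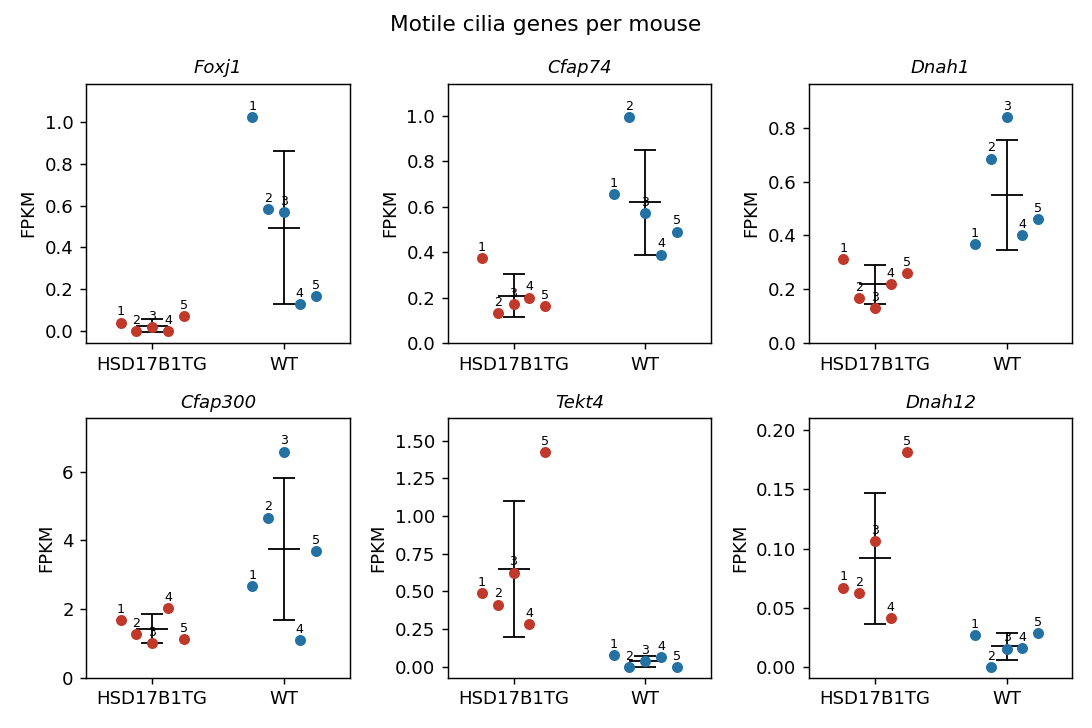
FPKM of 6 motile cilia genes in each mouse, on linear axes that differ between panels. Points are mice, with their number, and bars are mean and SD (n = 5 per group). *Foxj1*, *Cfap74* and *Dnah1* are lower and *Tekt4* and *Dnah12* higher in all HSD17B1TG mice than in any WT mouse, while WT4 lies among the HSD17B1TG mice for *Cfap300*.

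Among the other dynein heavy chains, the changes pointed both ways and none passed edgeR's test, whereas *Dnah14* and *Dnah5* passed an adjusted p of 0.05 in DESeq2. *Dnah14* had the lowest log2 fold change of the 35 genes, -2.02 (standard error 0.63, edgeR adjusted p = 0.0755, and 0.0333 without WT4, DESeq2 adjusted p = 0.0108). In edgeR, *Dnah14* did not pass without any other single mouse. It was 0.0397 to 0.183 FPKM in HSD17B1TG, and in WT1 to WT5 it was 0.403, 0.879, 0.584, 0.122 and 0.141 FPKM. WT4 and WT5 thus lay within the range of the HSD17B1TG mice, and the gene overlaps *Lbr* on the other strand. *Dnah5*, the outer arm heavy chain that is mutated in primary ciliary dyskinesia, had the highest log2 fold change, 1.91 (standard error 0.64, edgeR adjusted p = 0.0915, DESeq2 adjusted p = 0.0214). It was 0.388 and 0.567 FPKM in TG1 and TG4, 0.0578 to 0.111 FPKM in the other 3 HSD17B1TG mice, and 0.0370 to 0.124 FPKM in WT, so that only TG1 and TG4 stood out. *Dnah17*, which is best known from sperm, was 0.208 ± 0.0504 FPKM (SD, n = 5) in HSD17B1TG and 0.160 ± 0.0458 FPKM in WT (log2 fold change 0.38, edgeR adjusted p = 0.457). *Dnah7a*, *Dnah7b* and *Dnah7c* are close copies of one another, and how reads that match several genes were counted is not given, so their split is uncertain. Over all dynein genes, heavy and intermediate chains together, the sum per mouse was 1.07 to 2.10 FPKM in HSD17B1TG and 1.39 to 2.75 FPKM in WT.

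The radial spoke genes that were well measured did not pass the test. *Rsph3a*, a stalk protein, was 7.48 ± 1.58 FPKM (SD, n = 5) in HSD17B1TG and 7.44 ± 0.976 FPKM in WT, and its log2 fold change was 0.0029 (standard error 0.18, edgeR adjusted p = 0.994). Its copy *Rsph3b*, with which it may share reads, was 1.47 to 3.01 FPKM in HSD17B1TG and 1.08 to 1.59 FPKM in WT (log2 fold change 0.63, standard error 0.24, edgeR adjusted p = 0.133). *Rsph1*, a head protein, was 7.05 FPKM in TG1 and 2.48 to 3.52 FPKM in the other HSD17B1TG mice, and 4.12 FPKM in WT4 and 1.40 to 1.99 FPKM in the other WT mice. Apart from WT4, the WT mice thus lay under all HSD17B1TG mice for *Rsph1* (log2 fold change 0.82, standard error 0.39, edgeR adjusted p = 0.214). *Rsph9*, another head protein, was 3.36 ± 1.62 FPKM (SD, n = 5) and 3.21 ± 1.48 FPKM in HSD17B1TG and WT (log2 fold change 0.06, edgeR adjusted p = 0.939), and its gene overlaps *Mrps18a*.

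Of the 16 Cfap genes tested, 6 were higher and 10 lower in HSD17B1TG (median of the log2 fold changes -0.14), and *Cfap74* alone passed an adjusted p of 0.05 in edgeR with all mice. *Cfap300* (ENSMUSG00000053070), which is needed for the assembly of dynein arms, was 1.00 to 2.03 FPKM in HSD17B1TG, and in WT1 to WT5 it was 2.66, 4.66, 6.58, 1.09 and 3.68 FPKM. All WT mice but WT4 stood above all HSD17B1TG mice for *Cfap300*. Its log2 fold change was -1.40 (standard error 0.44, edgeR adjusted p = 0.0773), and it was called lower by DESeq2, by limma's voom with quality weights and by edgeR without WT4. In edgeR, *Cfap300* did not pass without any other single mouse. *Cfap69*, which DESeq2 passed upward by its adjusted p, was 0.477 to 1.27 FPKM in HSD17B1TG and 0.247 to 0.679 FPKM in WT, with overlap (log2 fold change 1.04, standard error 0.36, edgeR adjusted p = 0.0990). The abundant Cfap genes did not pass with all mice. *Cfap36* was 8.94 ± 2.17 FPKM (SD, n = 5) in HSD17B1TG and 10.7 ± 0.950 FPKM in WT (log2 fold change -0.27, standard error 0.17, edgeR adjusted p = 0.344), with TG1 as the highest mouse of all and a log2 fold change of -0.43 without it. *Cfap20* was 7.80 to 8.89 FPKM in HSD17B1TG and 10.1 to 11.5 FPKM in the WT mice other than WT4, which had 6.37 FPKM (log2 fold change -0.27, standard error 0.16, edgeR adjusted p = 0.323). Without WT4, the log2 fold change of *Cfap20* was -0.40 (edgeR adjusted p = 0.0386), and no other fit without 1 mouse passed. *Cfap298*, a factor of dynein arm assembly, was 6.67 ± 2.19 FPKM (SD, n = 5) and 6.17 ± 1.24 FPKM in HSD17B1TG and WT (log2 fold change 0.11, edgeR adjusted p = 0.829).

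Among the other axoneme genes, none of the 4 tested passed in edgeR or DESeq2. *Tekt2*, a tektin, was 4.97 FPKM in TG1 and 0.879 to 2.32 FPKM in the other HSD17B1TG mice, and 1.93 to 4.92 FPKM in WT (log2 fold change -0.55, standard error 0.45, edgeR adjusted p = 0.483, and -0.98 on the log2 scale without TG1). *Ccdc39* and *Ccdc40* encode partners that form the molecular ruler of the axoneme. *Ccdc39* was 1.76 ± 0.418 FPKM (SD, n = 5) in HSD17B1TG and 1.78 ± 0.530 FPKM in WT (log2 fold change -0.02, edgeR adjusted p = 0.971). *Ccdc40* was 0.852 ± 0.507 and 0.449 ± 0.253 FPKM in HSD17B1TG and WT (SD, n = 5), with a log2 fold change of 0.92 (standard error 0.49, edgeR adjusted p = 0.265). *Ccdc39* overlaps *Ttc14*, so a part of its counts may belong to that gene.

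*Hydin*, a giant protein of the central pair, was 0.0127 to 0.171 FPKM in HSD17B1TG, and in WT1 to WT5 it was 0.404, 0.336, 0.0241, 0.252 and 0 FPKM. The WT mice thus spread over the whole range, and the log2 fold change of *Hydin* was -1.72 (standard error 1.08, edgeR adjusted p = 0.343).

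Other genes of motile cilia were also mixed. Of 67 further genes of the axoneme and of ciliated cells, 61 are in the table and 32 were tested, with 13 higher and 19 lower and a median log2 fold change of -0.20. An adjusted p under 0.05 was reached by 2 of the 32 upward (3.34% of all genes) and by none downward (2.81%), and 1 was called higher (2.16%). *Capsl*, a calcium-binding protein of ciliated cells, was called higher, with 4.24, 16.7, 17.5, 16.1 and 20.9 FPKM in TG1 to TG5 and 2.68 to 6.86 FPKM in WT (log2 fold change 1.75, standard error 0.41, edgeR adjusted p = 0.0392). TG1 lay within the WT range for *Capsl*, as it did for *Pax2* and *Pax8*. *Spef1*, a microtubule bundler that is also found at the apical side of epithelial cells, was 13.1 to 18.1 FPKM in HSD17B1TG and 7.03 to 11.02 FPKM in WT without overlap (log2 fold change 0.63, standard error 0.16, edgeR adjusted p = 0.0449), a change under the fold threshold. *Tppp3* was 43.5 ± 25.2 FPKM (SD, n = 5) in HSD17B1TG and 73.3 ± 24.1 FPKM in WT (log2 fold change -0.76, standard error 0.36, edgeR adjusted p = 0.217).

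The genes shared with non-motile cilia, in contrast, were expressed throughout. All 48 genes of intraflagellar transport, the BBSome and primary cilia were tested, with a median level of 4.21 FPKM. Of these, 11 were higher and 37 lower in HSD17B1TG (median of the log2 fold changes -0.17), and none passed an adjusted p of 0.05. The 3 most abundant were *Ift20* (34.0 FPKM), *Arl3* (29.9 FPKM) and *Dync2li1* (15.4 FPKM).

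Genes of the ovary and of the layers of the uterus were counted beside these. Of 18 genes of the ovary, 12 are in the table and 5 were tested. Only *Foxl2*, which the uterine stroma also expresses, was called, with a log2 fold change of -2.25 (standard error 0.42, edgeR adjusted p = 0.0229). *Inhbb*, an inhibin subunit that the uterus also expresses, was 51.9 to 240 FPKM in HSD17B1TG and 1.21 to 239 FPKM in WT (edgeR adjusted p = 0.940), and *Inha* was 2.61 to 11.3 and 3.55 to 9.37 FPKM (edgeR adjusted p = 0.966). Of the 4 Hox genes listed for uterine identity, *Hoxa10*, *Hoxa11* and *Hoxd11* were called lower, where 2.08% of all genes tested were. Their log2 fold changes were -2.14, -2.36 and -1.48, and *Hoxd10* did not pass (-1.21, edgeR adjusted p = 0.0759). The sum of the 4 Hox genes was 51.7 to 121 FPKM in HSD17B1TG and 105 to 423 FPKM in WT, and WT4 was the lowest WT mouse. A change of tissue identity was not tested. Of 7 gland genes, 4 were tested and none passed. *Sox9* was 12.1 to 40.6 FPKM in HSD17B1TG and 4.56 to 19.3 FPKM in WT (edgeR adjusted p = 0.0742). *Cxcl15* was at 0 in TG1 to TG4, 1.06 FPKM in TG5 and 0.159 to 32.3 FPKM in WT (edgeR adjusted p = 0.0566). *Spink1* was not tested, and only WT3 (36.4 FPKM) and WT5 (14.7 FPKM) held more than 0.147 FPKM. All 7 genes of the myometrium, *Acta2*, *Actg2* and *Myh11* among them, had positive log2 fold changes (median 0.60) without passing. Their sum was 7235 FPKM in TG1 and 845 to 3012 FPKM in the other HSD17B1TG mice, and 5712 FPKM in WT4 and 404 to 2038 FPKM in the other WT mice. TG1 and WT4, which stood apart from their groups for *Rsph1*, thus held the most transcripts of smooth muscle. The part of these tissues in the levels of the motile cilia genes was not tested.

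How far the motile cilia genes varied together was described over the mice. Over the 595 pairs of the 35 tested genes, the median Pearson r of the log2 CPM over the 10 mice was 0.06, with 17.1% of pairs over 0.5 and 9.58% under -0.5. Over all pairs of the 16993 genes tested, these shares were 14.7% and 14.4%. The mean of the 13 dynein and radial spoke genes tested was used as a profile, and its own members correlated with it from -0.47 (*Dnah17*) to 0.89 (*Dnah7b*). The 10 protein-coding genes with the profile most like it, among all genes tested that are not members, were *Kif1b* (r = 0.973), *Syt11*, *Kcnk3*, *Klhl13*, *Fam213b*, *Ctsk*, *Dgcr6*, *Eda2r*, *Ccdc173* and *Zfand1* (r = 0.932). These correlations share the 10 libraries and both genotypes, and they are a description only.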

How the data were processed

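Uterine RNA of 5 HSD17B1TG and 5 WT mice was sequenced by the authors as paired-end reads on a NovaSeq instrument and mapped with HISAT2 2.0.5 to the mouse genome. The authors deposited raw counts per gene and FPKM in 1 table. In the deposited FPKM, the number of fragments per mouse is proportional to the mouse's median-of-ratios size factor, recomputed from the counts, and not to its total count. The same table holds the authors' normalized values and group means and their own DESeq2 comparison, which is also the content of the other deposited tables with its enriched terms, and none of these were used. Which program counted the reads, and with which strand setting, is not given in the sources used here.

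Groups follow the genotype in the labels. Counts were tested with edgeR 4.0.16 (filterByExpr, TMM, quasi-likelihood test) in R 4.3.3, with the study's thresholds. Single genes were also tested on FPKM by exact permutation (two-sided, 252 ways to assign the mice), and p-values measure the spread between these mice. Alternatives were DESeq2 1.42.0, RLE, no filter, limma 3.58.1 with voom or on log2(FPKM + 1) and log2(FPKM + 0.1), and each mouse left out. The fits were tested on simulated data first. The members and lists were chosen with earlier results of these data known.

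Genes named are the regulators, the 3 highest of each group by mean FPKM, those with an adjusted p under 0.05 or without overlap, the 5 with the smallest p, the oviduct genes, and of each other list the 3 highest and those called. *Tekt1*, *Hydin*, *Rsph3b*, *Cfap69* and the ciliated cell markers, and genes at the ends of a range, were added after their values were seen. 60 of the 65 genes have the same coordinates in GENCODE M21, from which overlaps were taken. The last 50 bases of 51 of the 61 promoter windows of these genes were found in a GENCODE transcript of the gene.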

Additional observations from a re-analysis of the deposited data

Results flagged for a closer look

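Among the FPKM of 44 of the genes named above, the named motile cilia genes among them, the highest or lowest of the 5 mice stood far from the others in 14 of 88 groups by Dixon's test at the 95% level, where chance flags about 1 group in 20 if values are normally distributed. That rate was not measured for levels near 0 such as those of *Ccno*, *Dnaic2*, *Fam183b*, *Cxcl15* and *Spink1*. In the HSD17B1TG group, TG1 was the highest mouse for *Cfap36* (12.8 FPKM, the others 7.82 to 8.19), *Cfap74* (0.372 FPKM, the others 0.133 to 0.199), *Rsph1* (7.05 FPKM, the others 2.48 to 3.52) and *Dnaic2* (0.117 FPKM, the others 0 to 0.0233). TG5 was the highest for *Ccno* (0.151 FPKM, the others 0 to 0.0420), which is 6 counts. TG1 was the lowest for *Capsl* (4.24 FPKM, the others 16.1 to 20.9). *Cxcl15* (1.06 FPKM in TG5) and *Spink1* (0.147 FPKM in TG4) were at 0 in the other 4 mice. In the WT group, WT4 was the lowest mouse for *Cfap20* (6.37 FPKM, the others 10.1 to 11.5) and the highest for *Dnah5* (0.124 FPKM, the others 0.0370 to 0.0555) and *Rsph1* (4.12 FPKM, the others 1.40 to 1.99). WT3 was the highest for *Ovgp1* (4.51 FPKM, the others 0.394 to 1.08) and for *Fam183b* (1.86 FPKM, the others 0 to 0.371). WT5 was the lowest for *Rsph3b* (1.08 FPKM, the others 1.49 to 1.59).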

How the results depend on the processing

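No motile cilia gene was called higher in HSD17B1TG under any of the alternatives run. Most of these genes lay under the FPKM threshold of a call in both groups. *Cfap300* was called lower by DESeq2 (1), by voom with quality weights (1) and without WT4 (1), so that the count ran from 0 to 1 over the fits without 1 mouse, and 2 genes were lower by an adjusted p alone. The median log2 fold change was -0.17 with voom, and it ran from -0.07 to 0.10 over the fits without 1 mouse. With an adjusted p alone, DESeq2 gave 4 genes higher and 5 lower, against 7.84% and 6.03% of all genes it gave an adjusted p, and *Dnah12*, *Dnah14*, *Dnah5*, *Cfap69* and *Cfap300* passed there and not in edgeR with all mice. Of 308 values of 20 single genes, 270 stayed on their side of an adjusted p of 0.05, 30 lost it and 8 gained it, and no gene past it turned its direction. *Dnah1* lost it with limma on FPKM, whereas *Cfap74* kept it. Depth limits the 4 genes with at most 3 counts in every mouse, which cannot be told from absent, and 30 of the 65 genes did not pass the filter. No paired analysis was possible because the replicate numbers only name the mice.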
